A study of Mus musculus with 23 samples.

Results

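Sterol transport and lipoprotein genes were followed in the colonic epithelium of aged mice by RNA sequencing. The set holds 10 of the 24917 gene loci counted, taken by their symbols: the sterol exporters Abcg5 and Abcg8, the sterol importer Npc1l1, the cholesterol efflux pumps Abca1 and Abcg1, the apolipoproteins Apoa1, Apoa4 and Apob, the lipid transfer protein Mttp and the cholesterol-esterifying enzyme Soat2. Each symbol matched 1 locus. The samples came from male C57BL/6 mice (C57BL/6J in the methods) that began their diets at 6 weeks of age, with lard as the source of fat. Control (LF) mice ate a diet with 10% fat for 43 weeks, obese (HF) mice a diet with 60% fat for 43 weeks, and formerly obese (HF-LF) mice the 60% diet for 15 weeks followed by the 10% diet for 28 weeks. Batch 1 held 4 LF, 3 HF and 4 HF-LF samples and batch 2 held 4 LF, 3 HF and 5 HF-LF samples, 23 in all. The methods give fewer mice per regimen than there are samples, and some mice may have given more than 1 sample. The p-values therefore measure the spread between samples, part of which may be technical. The questions addressed were how the diet changed these genes and whether their levels after the diet switch were those of LF or of HF mice.

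In the intestine, cholesterol from the lumen enters the absorptive cell through Npc1l1 at the apical membrane, and the heterodimer of Abcg5 and Abcg8 pumps plant sterols and cholesterol back out. Inside the cell Soat2 esterifies cholesterol, and Mttp loads triglyceride and cholesteryl ester onto Apob to build the chylomicron, which also carries Apoa1 and Apoa4. Abca1 passes cholesterol across the basolateral membrane to Apoa1, and Abcg1 moves it to larger particles. Abca1, Abcg1, Abcg5 and Abcg8 are classic targets of the oxysterol receptors LXR. Most sterol and fat is absorbed in the small intestine, and the colon is not a main site of chylomicron assembly.

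The libraries held 29189922 to 46498521 counts in batch 1 and 31607019 to 65320947 in batch 2. Levels are given as CPM, the count scaled to library size within a batch, and 3 counts stood for 0.0459 to 0.103 CPM. Floors of this kind cover counting error only. The epithelial label was checked against marker genes. The summed level of 11 colonocyte markers lay between 13714 and 24404 CPM and that of 6 goblet cell markers between 16718 and 42848 CPM in every library. Lower sums were found for 12 markers of the small-intestinal type of enterocyte (629 to 1145 CPM), 5 proliferation markers (252 to 611), 6 distal colon Hox genes (204 to 394), 5 enteroendocrine markers (145 to 380) and 5 stem and crypt markers (69.1 to 145). Markers of other tissues were low: 6 of the hepatocyte at 27.2 to 69.9 CPM, 9 of smooth muscle and stroma at 3.25 to 90.5, 8 of T and B lymphocytes at 10.8 to 25.7, 8 of macrophages at 6.63 to 19.8, 5 of adipocytes at 3.61 to 17.1 and 5 of endothelium at 1.71 to 10.7. No marker stood at 0 in all 23 libraries, but several stayed below 0.5 CPM in every library. Among them were Apoc3 and Cyp3a11 of the small-intestinal type and Fgb and Serpina1a of the hepatocyte. So did 4 of the 5 adipocyte markers, and Cidec (3.54 to 17.1 CPM) made up most of the adipocyte sum. HF replicate 3 of batch 1 stood apart, with the highest small-intestinal-type sum (1145 CPM) and the lowest stromal sum (3.25 CPM) of all libraries.

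The genes differed widely in level. Compared per kilobase of exon, Apob, the structural protein of chylomicrons and very low density lipoprotein, was far above the rest, at 81.2 to 169 CPM per kb over the 23 samples (median 98.1). Abcg5 followed at 5.24 to 14.6 (median 8.35), then Abca1 at 2.03 to 5.61 (median 3.74) and Abcg8 at 1.40 to 3.32 (median 2.33). These ranges overlapped between neighbours, but in each of the 23 samples Abcg5 was above Abca1 and Abca1 above Abcg8. Soat2 (median 1.36 CPM per kb) and Abcg1 (median 1.32) were not separable, with Soat2 above Abcg1 in 12 of 23 samples. Mttp was lower, at 0.590 to 1.05 CPM per kb (median 0.834), and every sample was above the highest Npc1l1 value of 0.561 (median 0.309). Apoa1 (median 0.133 CPM per kb) and Apoa4 (median 0.0149) lay near the detection floor.

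**Figure D1:**
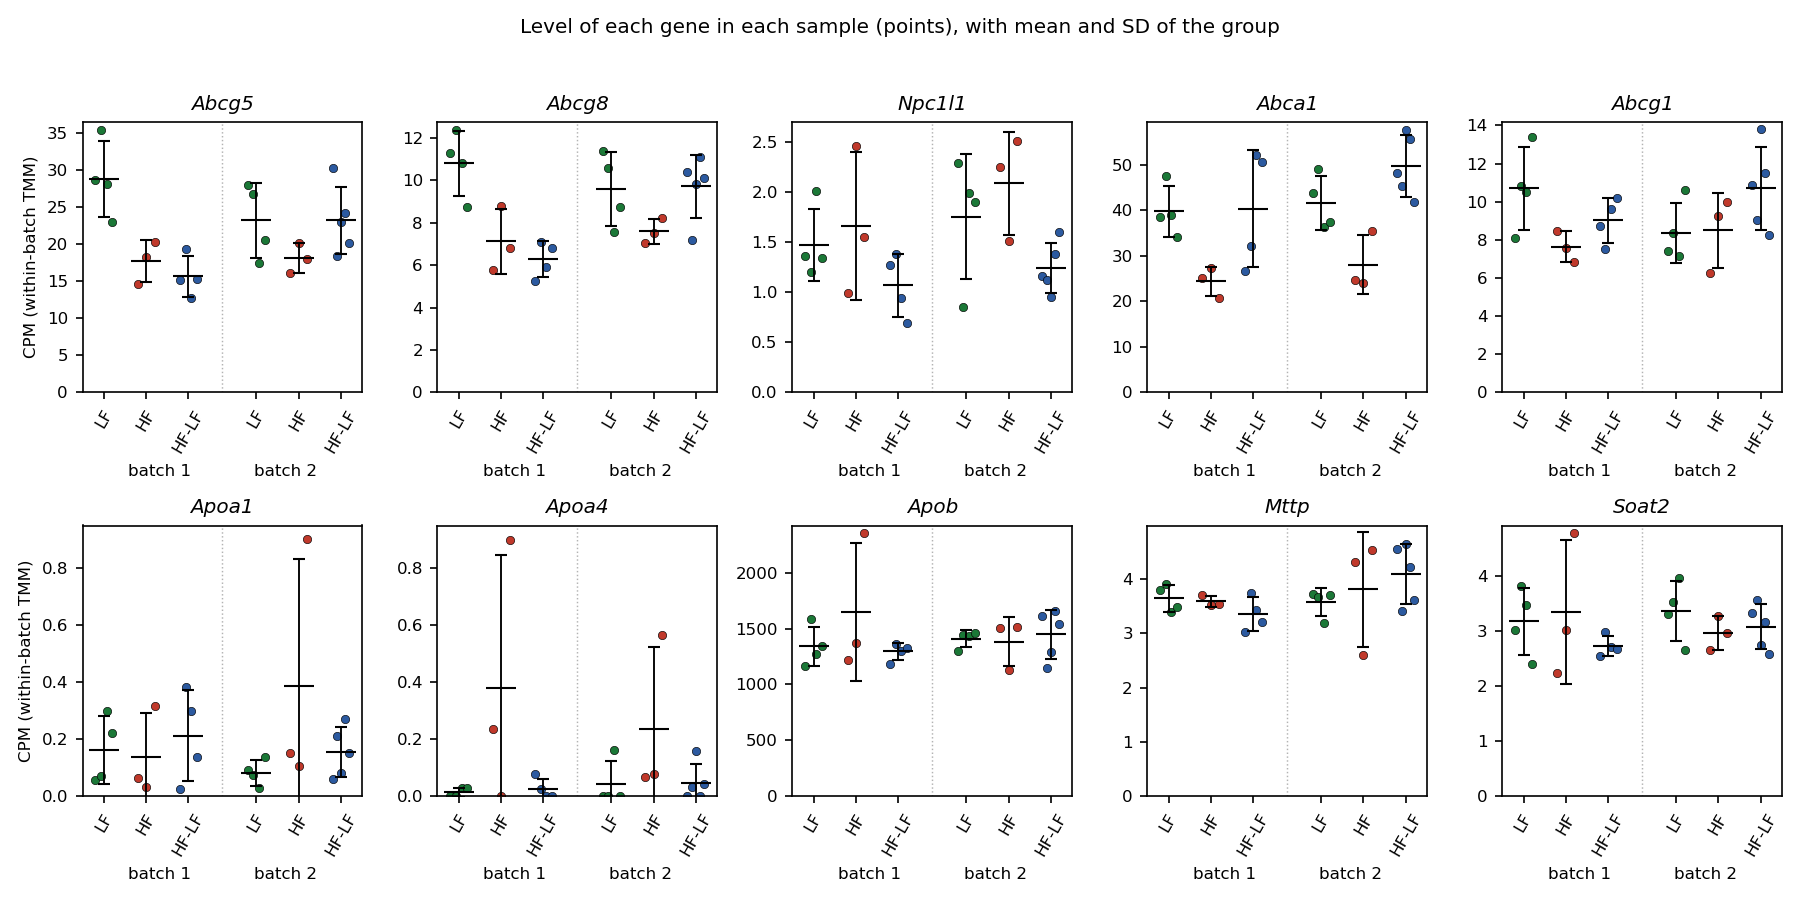
Level of each of the 10 genes (y axis, CPM after TMM scaling within the batch, from 0) in the LF, HF and HF-LF samples of both batches (x axis); points are samples, dashes the group mean and bars its SD, drawn only above 0. Abca1 sat between 20.8 and 35.5 CPM in the 6 HF samples and between 34.2 and 49.0 CPM in the 8 LF samples, while Apoa1 and Apoa4 stayed below 1 CPM in every sample.

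Abcg5 and Abcg8 lie head to head on chromosome 17 (mm10). The file places Abcg5 (Entrez 27409) at chr17:84658234-84682923 on the minus strand and Abcg8 (Entrez 67470) at chr17:84676302-84700333 on the plus strand. In GENCODE vM21, on the same build, the main transcript of Abcg5 starts at base 84683011 and that of Abcg8 at base 84683121, so 109 bases lie between the starts. A second Abcg8 transcript begins inside Abcg5 and shares 40 exon bases with it on the opposite strand (84676302 to 84676341), which is 1.65% of the exon bases of Abcg5 and 1.07% of those of Abcg8. Since it is not stated whether strand was used in counting, reads on those bases cannot be assigned with certainty. The stretch between the starts is shown because the levels of both genes moved together. It was read from the RefSeq promoter table (GRCm38.p6, chr17:84683012-84683120, plus strand), and capitals mark AGATAA, the form bound by GATA factors, here read on the opposite strand.
Abcg5-Abcg8 stretch: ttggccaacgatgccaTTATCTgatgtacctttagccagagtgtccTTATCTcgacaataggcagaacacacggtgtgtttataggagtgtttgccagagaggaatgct
A TATAAA box, also on the opposite strand, lies 31 to 26 bases before the Abcg8 start and is not in capitals. The 300-base promoter windows at these starts, 250 bases before the start and 50 after it, overlap. Each held 3 matches to AGATAA on either strand, and they are the same 3 sites, so the windows are not independent. The window at the other Abcg8 start, inside Abcg5, held 0 matches. At least 1 match was found in 11.2% of the 32851 windows of the table and 3 or more in 0.107%. The Abcg5 window also held CAAAGNNCA, a form bound by HNF4 (6.36% of all windows).

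**Figure D2:**
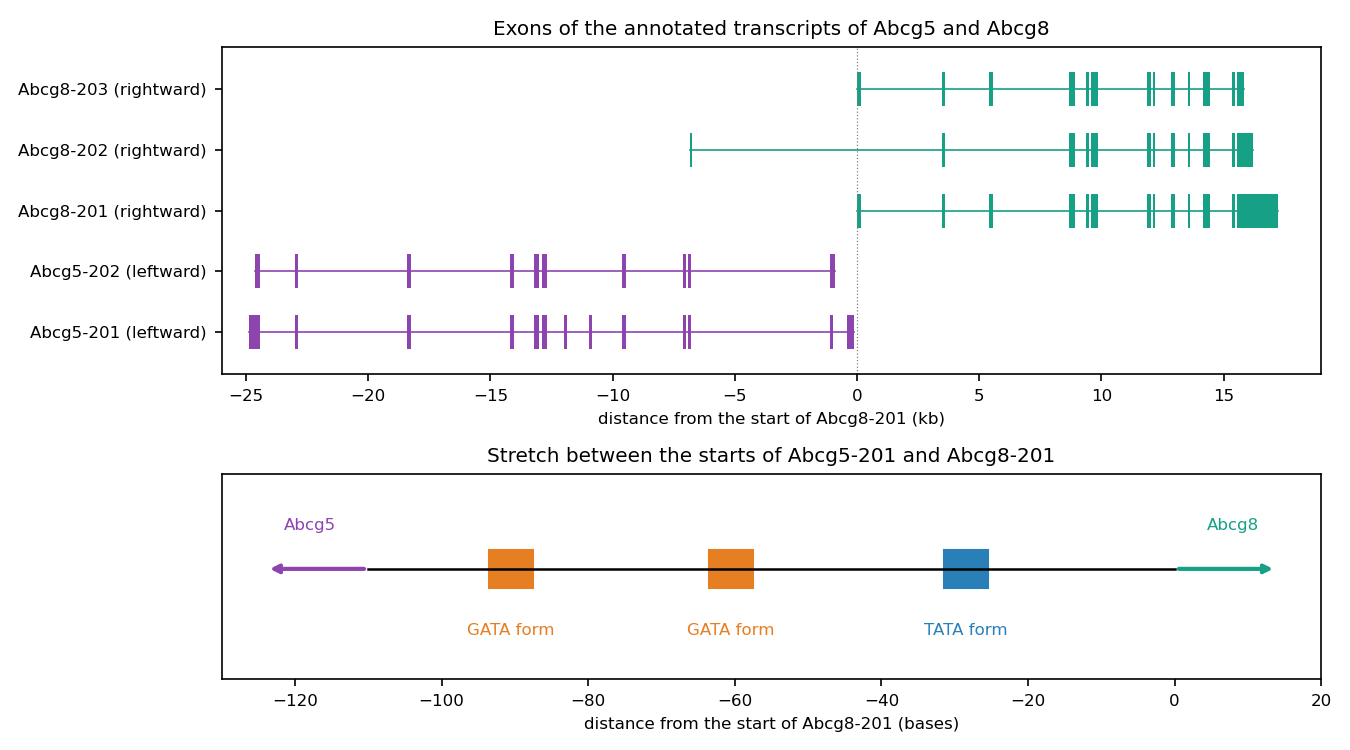
Exons (boxes) of the annotated transcripts of Abcg5, read leftward, and Abcg8, read rightward, against distance from the start of the main Abcg8 transcript (upper panel, x axis in kb), and the stretch between both starts with its motif matches (lower panel, x axis in bases). The starts are 109 bases apart and the first exon of Abcg8-202 lies inside Abcg5.

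Transcripts of the exporter pair were lower in HF than in LF mice when both batches were fitted together. In batch 1, Abcg5 was measured at 28.6, 35.3, 28.1 and 22.9 CPM in the LF samples, at 14.6, 18.2 and 20.3 CPM in the HF samples and at 15.2, 19.3, 12.7 and 15.3 CPM in the HF-LF samples. All 7 samples of mice that had eaten the 60% diet were below all 4 LF samples. In batch 2, Abcg5 was measured at 28.0, 26.8, 17.4 and 20.5 CPM in the LF samples, at 16.1, 20.2 and 18.0 CPM in the HF samples and at 30.2, 18.4, 22.9, 24.2 and 20.2 CPM in the HF-LF samples. Here the 3 diets overlapped, and the HF-LF mean (23.2 ± 4.51 CPM, SD, n = 5) equalled the LF mean (23.2 ± 5.04 CPM, SD, n = 4). Abcg8 had the same layout at a lower level. Its batch 1 values were 11.3, 12.4, 10.8 and 8.73 CPM in LF, 5.78, 8.81 and 6.81 CPM in HF and 5.27, 7.10, 5.94 and 6.83 CPM in HF-LF samples. HF replicate 2 reached into the LF range, and the 4 HF-LF samples stayed below it. In batch 2 the values were 11.4, 10.6, 7.59 and 8.77 CPM in LF, 7.04, 7.52 and 8.24 CPM in HF and 10.4, 7.21, 9.81, 11.1 and 10.1 CPM in HF-LF samples.

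Over both batches, Abcg5 fell in HF mice by 0.54 on the log2 scale (SE 0.16, adjusted p = 0.0176 with edgeR's quasi-likelihood test) and Abcg8 fell by 0.48 (SE 0.15, adjusted p = 0.0206). Within batch 1 the log2 differences were -0.70 (SE 0.17, adjusted p = 0.139) and -0.60 (SE 0.17, adjusted p = 0.160), and within batch 2 they were -0.36 (SE 0.17, adjusted p = 0.159) and -0.33 (SE 0.15, adjusted p = 0.141), so neither batch alone passed the threshold with edgeR. In batch 1 both genes passed with DESeq2 (adjusted p = 0.0105 and 0.038) and with limma voom with sample weights (adjusted p = 0.0142 and 0.0173). The Abcg8 call was lost without LF replicate 2 (adjusted p = 0.0508) or HF replicate 1 (adjusted p = 0.0519) of batch 1. With the HF libraries numbered 3 of both batches left out, a choice made after seeing the data, neither gene passed (adjusted p = 0.0583 for Abcg5 and 0.0773 for Abcg8), with log2 differences of -0.59 and -0.48.

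After the diet switch the pair lay further from LF in batch 1 than in batch 2, and a test of that difference did not pass. In batch 1 the HF-LF samples were below LF by 0.88 on the log2 scale for Abcg5 (log2 difference -0.88, SE 0.16, adjusted p = 0.792) and by 0.78 for Abcg8 (-0.78, SE 0.16, adjusted p = 0.792). In batch 2 the same differences were 0.00 (SE 0.15, adjusted p = 1) for Abcg5 and 0.02 (SE 0.13, adjusted p = 1) for Abcg8. The difference of HF-LF from HF was -0.18 for each gene in batch 1 (SE 0.17 each, adjusted p = 0.670 and 0.689) and 0.36 for each in batch 2 (SE 0.16 and 0.15, adjusted p = 0.126 and 0.0896). None of these passed the threshold with edgeR. DESeq2 called the batch 1 differences from LF (adjusted p = 0.0021 for Abcg5 and 0.0254 for Abcg8), and limma voom with sample weights did not. The difference between the batches was tested itself, as an interaction of diet and batch. For HF-LF against LF it was 0.87 (SE 0.23, adjusted p = 0.632) for Abcg5 and 0.79 (SE 0.21, adjusted p = 0.632) for Abcg8, and no gene of the 14385 tested passed an adjusted p of 0.05 (0%), also for the other contrasts. DESeq2 found no member with such an interaction either. Abcg5, Abcg8 and Abcg1 were the 3 of the 9 genes tested with an unadjusted p under 0.05 in that interaction, against 7.58% of all genes. In the interaction for HF-LF against HF 2 of 9 had such a p (7.68% of all genes), and in that for HF against LF 0 of 9 (6.56%).

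The transcripts kept a narrow ratio. Abcg8 took 25.1% to 33.4% of the counts of the pair, and its mean share was 27.4% ± 0.936 (SD, n = 4) in LF, 28.7% ± 3.82 (SD, n = 3) in HF and 28.9% ± 2.98 (SD, n = 4) in HF-LF samples of batch 1. In batch 2 the share was 29.4% ± 0.877 (SD, n = 4), 29.6% ± 2.25 (SD, n = 3) and 29.7% ± 3.02 (SD, n = 5). The diets overlapped in this share in both batches. Across the 23 samples, log2 levels of Abcg5 and Abcg8 with batch means subtracted had a Pearson r of 0.907 and a Spearman rank correlation of 0.885 (permutation p = 1e-05 for each, the smallest that 100000 permutations can give). Without the 2 samples farthest from the median of Abcg5, r was 0.865. It was 0.926 within batch 1 and 0.861 within batch 2, and 0.751 after the mean of each diet and batch was subtracted. Of all genes in the fit over both batches, Abcg8 was the most like Abcg5 in its pattern (r = 0.905 over 23 samples on the scale used for all genes). Next came Pmaip1, a pro-apoptotic BH3-only protein (r = 0.854), and Itgae, the integrin alpha E chain of intraepithelial lymphocytes (r = 0.839), and for Abcg8 they were Itgae (r = 0.852) and Rbak (r = 0.830).

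**Figure D3:**
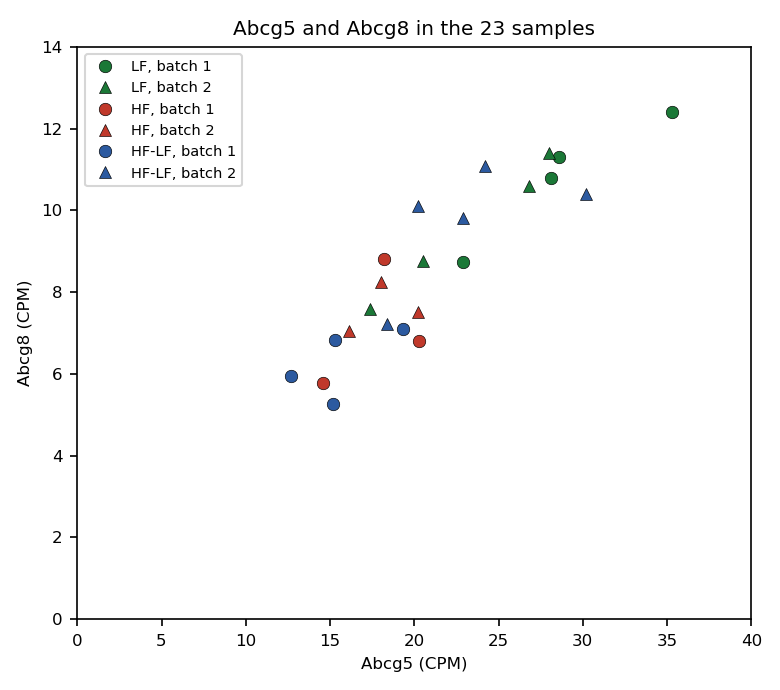
Abcg8 level (y axis, CPM) against Abcg5 level (x axis, CPM) in each of the 23 samples, coloured by diet, with circles for batch 1 and triangles for batch 2. The points lie along a narrow band from 12.7 to 35.3 CPM of Abcg5, with the HF-LF samples of batch 1 at its low end and the LF samples of batch 1 reaching its high end.

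Lymphocyte markers were compared beside the pair. Their mean sums had the same order of diets as the pair in batch 1 but not in batch 2, where the mean was 12.3 CPM in LF and 13.3 CPM in HF samples. The summed level of the 8 T and B lymphocyte markers was 18.2 to 25.7 CPM in LF, 15.0 to 23.3 CPM in HF and 11 to 19.3 CPM in HF-LF samples of batch 1. In batch 2 it was 11 to 14.3 CPM, 10.8 to 15.0 CPM and 14.5 to 17.3 CPM. Of these markers Cd4, Cd79a and Ms4a1 stayed below 0.5 CPM in every library, and 0 of the 4 tested over both batches had even an unadjusted p under 0.05 with edgeR for HF against LF. Of the 5 proliferation markers 4 were called higher in HF than in LF mice over both batches (median 0.33 on the log2 scale), beside 18.1% of all genes called in either direction. The mean sum of these 5 was 301 CPM in LF and 464 CPM in HF samples of batch 1, but 482 and 504 CPM in those of batch 2. The part of the lymphocyte and proliferation markers in the result was not tested. In RNA from a whole epithelial fraction, fewer cells of a type and less RNA per cell cannot be told apart.

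Among the 9 genes that passed the expression filter over both batches, Abca1 alone was called for HF against LF and again, in the opposite direction, for HF-LF against HF. It encodes the pump that starts high density lipoprotein formation. Abca1 (Entrez 11303) lies at chr4:53030789-53159895 on the minus strand of mm10. In batch 1 it was measured at 38.4, 47.5, 38.9 and 34.2 CPM in LF, at 25.1, 27.2 and 20.8 CPM in HF and at 26.6, 32.1, 52.2 and 50.5 CPM in HF-LF samples. All HF samples were below all LF samples, and the HF-LF samples fell apart, with replicate 1 inside the HF range, replicate 2 between the HF and LF ranges and replicates 3 and 4 above every LF sample. In batch 2 it was measured at 43.8, 49.0, 36.2 and 37.3 CPM in LF, at 24.7, 24.0 and 35.5 CPM in HF and at 48.2, 45.3, 57.5, 55.6 and 41.8 CPM in HF-LF samples. HF samples were again below LF samples, narrowly so for HF replicate 3, and all HF-LF samples were above all HF samples.

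In batch 2, Abca1 fell in HF mice by 0.56 on the log2 scale (SE 0.15, adjusted p = 0.0382 with edgeR) and rose from HF to HF-LF mice by 0.82 (SE 0.14, adjusted p = 0.0102). Over both batches it fell by 0.63 (SE 0.14, adjusted p = 0.00536) and rose by 0.79 (SE 0.13, adjusted p = 0.00499), and both calls were kept when any 1 of the 23 libraries was left out. Without the HF libraries numbered 3 the values over both batches were -0.68 (adjusted p = 0.0278) and 0.83 (adjusted p = 0.0283). In batch 1 the differences were -0.71 (SE 0.21, adjusted p = 0.160) and 0.73 (SE 0.21, adjusted p = 0.412), which did not pass with edgeR. The fall passed there with DESeq2 (adjusted p = 0.0439) and with limma voom with sample weights (adjusted p = 0.0351), and the rise with neither. The HF-LF level differed from the LF level by 0.02 (SE 0.19) in batch 1, by 0.26 (SE 0.13) in batch 2 and by 0.15 (SE 0.12, adjusted p = 0.980) over both. The batch 2 call against LF was lost without LF replicate 1, 2 or 3 or HF replicate 1 or 2 (adjusted p = 0.104, 0.0736, 0.0846, 0.0812 and 0.210), and that of HF-LF against HF without HF replicate 2 (adjusted p = 0.0804).

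The Abca1 promoter is shown because Abca1 is the member with calls in both directions and it carries a known LXR element. The 150 bases before the start, from the RefSeq table (GRCm38.p6, chr4:53159896-53160045, minus strand), are printed with 3 matches in capitals.
Abca1 promoter: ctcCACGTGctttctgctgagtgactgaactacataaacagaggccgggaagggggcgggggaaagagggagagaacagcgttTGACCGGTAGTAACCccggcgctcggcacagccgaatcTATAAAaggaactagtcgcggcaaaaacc
The capitals mark an E-box (CACGTG, in 7.15% of all windows), the LXR form of GGTTA followed by 5 free bases and GGTCA, read on the opposite strand at 67 to 53 bases before the start (0.0487% of all windows), and TATAAA at 29 to 24 bases before it (13.6%). The related forms with GGTCA in both places (0.0761%) or with GGTCA first and GGTTA second (0.0487%) and the sterol-element form TCACNCCAC (1.24%) were in no window of the members. Of the other members, Apoa4 and Apob held CAAAGNNCA and Apob also TATAAA, and none of the 8 motif forms searched was in the windows of Npc1l1, Mttp and Apoa1. For Abcg1 and Soat2 no window was used.

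Markers of stroma and macrophages, cells that also express Abca1, varied between libraries. The summed level of 9 smooth muscle and stromal markers was 16.6 to 34.2 CPM in LF, 3.25 to 36.6 CPM in HF and 14.4 to 90.5 CPM in HF-LF samples of batch 1, and 14.1 to 59.6, 4.97 to 19.8 and 8.90 to 36.1 CPM in those of batch 2. The median log2 difference of these 9 markers between HF and LF mice over both batches was -1.2, with 1 of 9 called lower. The 8 macrophage markers summed to 7.49 to 12.8, 7.01 to 10.2 and 8.72 to 19.8 CPM in batch 1 and to 8.06 to 14.6, 6.63 to 10.8 and 7.72 to 12.3 CPM in batch 2, and 1 of the 7 tested was called lower in HF than in LF mice. Of all genes, 18.1% were called in either direction there, so the counts of 1 are not read as a result. The macrophage markers were mixed. C1qa averaged 1.05 CPM in LF and 1.54 CPM in HF samples of batch 1, and 1.62 and 2.23 CPM in batch 2. Mrc1 also had higher HF means in both batches, and the other macrophage markers had lower ones. In HF-LF against HF mice the medians were 1.05 for the stromal and 0.58 for the macrophage markers, with 0 of 9 and 0 of 7 called by edgeR (10.3% of all genes). At an unadjusted p under 0.05 there were 4 and 3, but the share of all genes at that p is not given, so these counts are not read as a result. The part of these cells in the Abca1 result was not tested. The genes most like Abca1 over the 23 samples were Trmt1, a tRNA methyltransferase (r = 0.886), Ctdsp2, a phosphatase (r = 0.870), and Dgkg, a diacylglycerol kinase (r = 0.864).

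Abcg1, the other efflux pump (Entrez 11307, chr17:31057694-31117981, plus strand), was called in no comparison. In batch 1 it was measured at 8.10, 10.8, 10.5 and 13.4 CPM in LF, 8.46, 7.59 and 6.85 CPM in HF and 8.75, 7.51, 9.61 and 10.2 CPM in HF-LF samples. In batch 2 it was measured at 7.40, 8.36, 7.16 and 10.6 CPM in LF, 6.28, 9.23 and 10.0 CPM in HF and 10.9, 9.02, 13.8, 11.5 and 8.27 CPM in HF-LF samples. The diets overlapped in both batches. The log2 difference between HF and LF mice was -0.48 (SE 0.17, adjusted p = 0.168) in batch 1, 0.02 (SE 0.19, adjusted p = 0.945) in batch 2 and -0.24 (SE 0.15, adjusted p = 0.227) over both, and that between HF-LF and HF mice was 0.30 (SE 0.14, adjusted p = 0.134) over both. Hnf4a, a nuclear receptor of intestinal epithelium, Pla2g10os and Gpr135 were nearest to it in pattern (r = 0.666 for each).

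Npc1l1, the entry route of dietary cholesterol and the target of ezetimibe, was lower in HF-LF than in HF mice over both batches. It is a gene of low level here, with 25 to 164 counts per sample (Entrez 237636, chr11:6211011-6230245, minus strand). In batch 1 it was measured at 1.36, 1.2, 2.01 and 1.34 CPM in LF, at 0.992, 2.46 and 1.55 CPM in HF and at 1.27, 1.38, 0.945 and 0.691 CPM in HF-LF samples. In batch 2 it was measured at 2.29, 0.858, 1.99 and 1.90 CPM in LF, at 2.25, 1.51 and 2.51 CPM in HF and at 1.16, 1.12, 0.957, 1.38 and 1.6 CPM in HF-LF samples. The HF-LF samples were at the low side in both batches but overlapped with the other diets.

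Over both batches Npc1l1 fell from HF to HF-LF mice by 0.69 on the log2 scale (SE 0.21, adjusted p = 0.0324 with edgeR). The difference was -0.62 (SE 0.33, adjusted p = 0.492) in batch 1 and -0.75 (SE 0.27, adjusted p = 0.0590) in batch 2. HF and LF mice differed by 0.21 (SE 0.21, adjusted p = 0.461) and HF-LF and LF mice by -0.47 (SE 0.20, adjusted p = 0.980). The call did not hold when any of 5 single libraries was left out, HF-LF replicate 4 (adjusted p = 0.0559), HF replicate 2 (0.0513) or HF replicate 3 (0.0537) of batch 1, or HF replicate 1 (0.0535) or HF replicate 3 (0.0751) of batch 2, and it was also lost with limma voom with sample weights (adjusted p = 0.0652). With both HF libraries numbered 3 left out the adjusted p was 0.136.

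Markers of the small-intestinal type of enterocyte, which takes up sterols, were compared beside Npc1l1. Their sum was 672 to 778 CPM in LF, 710 to 1145 CPM in HF and 742 to 958 CPM in HF-LF samples of batch 1, and 665 to 900, 906 to 957 and 629 to 846 CPM in those of batch 2. Most of it was Fabp2 (211 to 537 CPM) and Slc5a1 (226 to 311 CPM). Apoc3, Cyp3a11, Lct and Treh reached at most 0.049, 0.443, 0.511 and 1.06 CPM, so the sum says little of these markers. Of the 10 markers tested over both batches, 1 was called higher in HF than in LF mice and 2 were called lower in HF-LF than in HF mice, with medians of 0.25 and -0.28 on the log2 scale. Of all genes, 18.1% and 10.3% were called in either direction, so these counts are not read as a result. The sum of the HF samples of batch 2 was above that of every other sample of that batch. Among the 3 genes most like Npc1l1 was Sis, the sucrase-isomaltase of the brush border (r = 0.723), after Zfyve20 (r = 0.779) and Slc38a1, an amino acid transporter (r = 0.738). Their part in the Npc1l1 result was not tested.

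Apob, Mttp and Soat2, the machinery of chylomicron assembly, were called in no comparison. Apob (Entrez 238055, chr12:7977677-8016839, plus strand) had 38031 to 104698 counts per sample, so counting error was small. In batch 1 it was measured at 1166, 1583, 1275 and 1344 CPM in LF, at 1219, 1376 and 2359 CPM in HF and at 1186, 1367, 1304 and 1328 CPM in HF-LF samples. HF replicate 3, the library that stood apart, held the highest Apob level of all 23. In batch 2 the values were 1300, 1446, 1437 and 1464 CPM in LF, 1509, 1132 and 1513 CPM in HF and 1611, 1147, 1290, 1656 and 1546 CPM in HF-LF samples, and the diets overlapped. The log2 difference between HF and LF mice was 0.30 (SE 0.19, adjusted p = 0.351) in batch 1, -0.03 (SE 0.13, adjusted p = 0.896) in batch 2 and 0.14 (SE 0.12, adjusted p = 0.385) over both, and without HF replicate 3 the batch 1 difference was -0.04. Between HF-LF and LF mice it was 0.01 (SE 0.11, adjusted p = 0.996) over both. The pattern of Apob was most like that of Lrrk2 (r = 0.861), Aim1 and Tmem131 (r = 0.852 each).

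Mttp (Entrez 17777, chr3:138089855-138143388, minus strand) lay between 2.60 and 4.65 CPM in all 23 samples, the narrowest range of the 10 genes as a ratio of highest to lowest (1.79). In batch 1 the group means were 3.65 ± 0.25 CPM in LF (SD, n = 4), 3.59 ± 0.103 CPM in HF (SD, n = 3) and 3.35 ± 0.313 CPM in HF-LF samples (SD, n = 4). The means of batch 2 were 3.58 ± 0.252 CPM (SD, n = 4), 3.82 ± 1.06 CPM (SD, n = 3) and 4.09 ± 0.558 CPM (SD, n = 5). Over both batches the log2 differences were 0.04 (SE 0.11) for HF against LF, 0.01 (SE 0.11) for HF-LF against HF and 0.05 (SE 0.10) for HF-LF against LF, with adjusted p of 0.807, 0.952 and 0.980. Soat2 (Entrez 223920, chr15:102150575-102163436, plus strand) lay between 2.24 and 4.78 CPM, and both ends were HF samples of batch 1, where replicates 1, 2 and 3 held 2.24, 3.01 and 4.78 CPM. Its log2 differences over both batches were -0.05 (SE 0.14), -0.11 (SE 0.14) and -0.16 (SE 0.13), with adjusted p of 0.822, 0.578 and 0.980. Nudcd3 (r = 0.754) was nearest in pattern to Soat2 and Pcdhb7 (r = 0.730) to Mttp.

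Apoa1 and Apoa4, the small apolipoproteins of chylomicrons and high density lipoprotein, were close to the detection floor, and the highest level of each was in an HF library. They are near neighbours on chromosome 9, Apoa1 (Entrez 11806) at chr9:46228630-46230469 and Apoa4 (Entrez 11808) at chr9:46240844-46243458, both on the plus strand. Apoa1 had 2, 2, 11 and 8 counts in LF, 3, 1 and 14 in HF and 1, 15, 11 and 5 in HF-LF samples of batch 1, and 3, 3, 1 and 6 counts, 7, 4 and 59 counts and 2, 7, 3, 10 and 7 counts in those of batch 2. A single library, HF replicate 3 of batch 2, held the 59 counts (0.902 CPM). Apoa4 had 0, 0, 1 and 1 counts in LF, 11, 0 and 40 in HF and 3, 1, 0 and 0 in HF-LF samples of batch 1, and 0, 0, 6 and 0 counts, 3, 3 and 37 counts and 0, 1, 6, 0 and 2 counts in those of batch 2. Apoa4 was at 0 in 10 of 23 samples, and its 2 highest values, 0.901 and 0.566 CPM, were those of the HF libraries numbered 3.

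The expression filter dropped Apoa4 from every fit and Apoa1 from that of batch 2. Apoa1 differed between HF and LF mice by 1.19 on the log2 scale over both batches (SE 0.61, adjusted p = 0.136), and without the HF libraries numbered 3 the value was -0.39 (adjusted p = 0.695), so its direction rested on them. The gene most like Apoa1 in pattern was Arhgdib (r = 0.634). For Apoa4 the mean of log2(CPM + 0.1) over the batches was higher in HF than in LF mice by 1.30 (exact permutation p = 0.0229, two-sided, labels exchanged within batches) and lower in HF-LF than in HF mice, with a difference of -1.19 (exact permutation p = 0.0270). Adjusted over the 12 permutation tests run on filtered members, both p were 0.162, and the other 10 tests had adjusted p of 0.162 or above, with 0.229 for Apoa1 between HF and LF mice of batch 2. In a fit without the expression filter, edgeR called Apoa4 in both comparisons over both batches (adjusted p = 0.00942 and 0.0194), and without the HF libraries numbered 3 it called neither (adjusted p = 0.236 and 0.393). The 6 hepatocyte markers, which are secreted plasma proteins, summed to 27.2 to 41.5 CPM in LF, 41.6 to 55.4 CPM in HF and 36.6 to 43.4 CPM in HF-LF samples of batch 1, and to 33.9 to 47.0, 61.3 to 69.9 and 34.4 to 42.7 CPM in those of batch 2. Most of this sum was Ttr (17.2 to 35.8 CPM) and Trf (8.28 to 32.1 CPM). Alb and Apoa2 reached at most 2.05 and 1.21 CPM, and Fgb and Serpina1a at most 0.0306 and 0.0538 CPM. Of the 4 markers tested over both batches 2 were called higher in HF than in LF mice, beside 18.1% of all genes called in either direction. The part of these markers in the values of Apoa1 and Apoa4 was not tested.

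**Figure D4:**
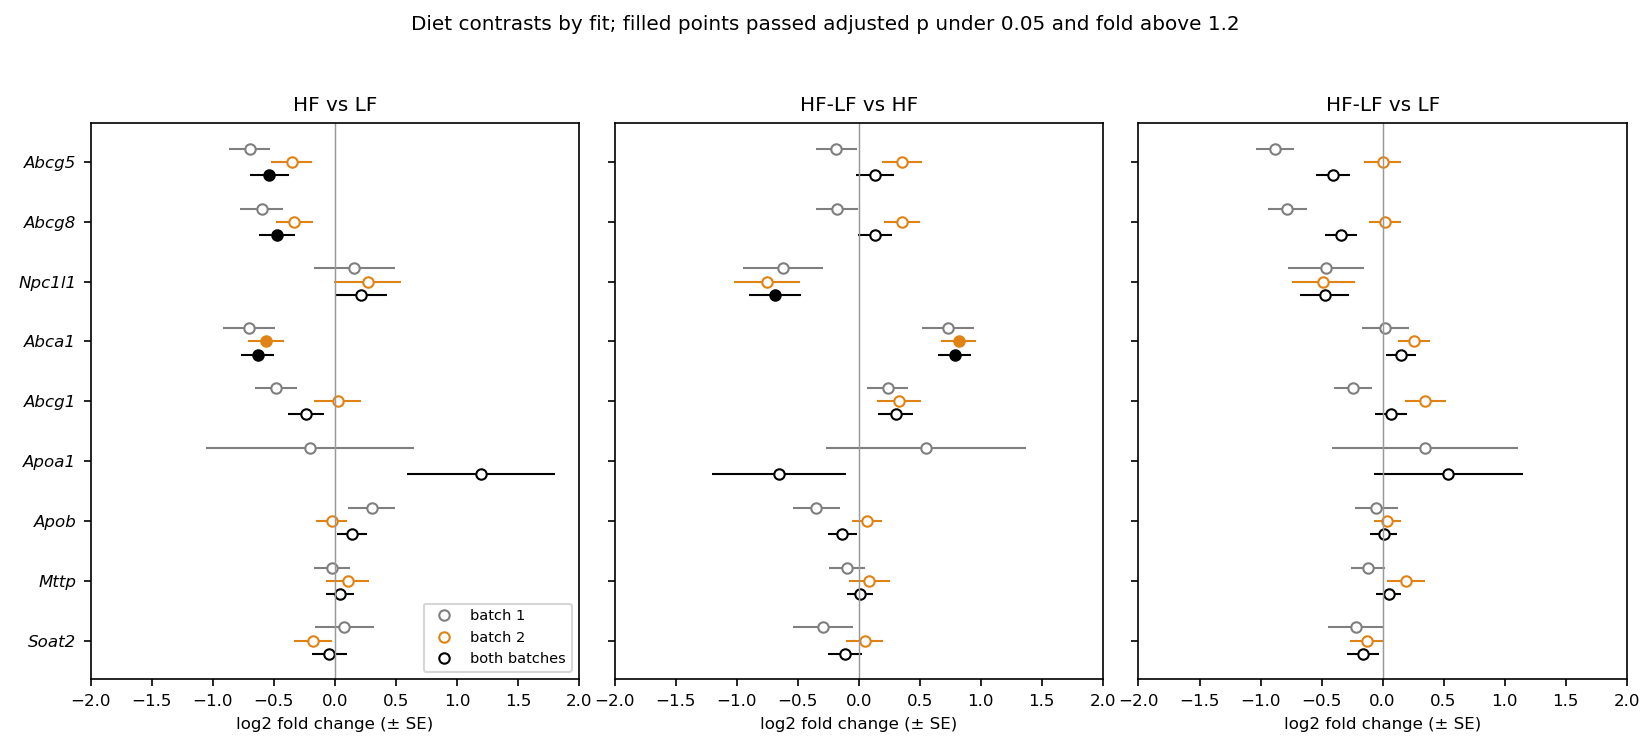
log2 fold change with its SE (x axis) of the 9 genes that passed the expression filter over both batches (y axis), for the 3 contrasts, in batch 1 (grey), batch 2 (orange) and both (black); filled points passed adjusted p under 0.05 and a fold above 1.2. Abcg5, Abcg8 and Abca1 were lower in HF than in LF mice over both batches, and in HF-LF against HF mice Abca1 was higher (0.79) and Npc1l1 lower (-0.69), while Apob, Mttp and Soat2 stayed within 0.35 of 0 in every fit.

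Counted over the set, the shares were read against those of all genes. In batch 1, edgeR called 0 of 9 members between HF and LF mice, and 0% of the 14428 genes tested. DESeq2 and limma voom with sample weights each called 3 there, Abcg5, Abcg8 and Abca1. By an unadjusted p under 0.05, 4 of 9 members passed with edgeR (22.2% of all genes), and the HF and LF samples did not overlap in CPM for 2 of 9, Abcg5 and Abca1 (13.6% of all genes). Between HF-LF and HF mice of batch 1, 0 of 9 members were called by any of the 3 tools (0.00693% of all genes with edgeR), 1 passed the unadjusted p (10.9%) and 0 did not overlap (8.02%). Between HF-LF and LF mice 0 of 9 were called (0%), by DESeq2 2, and 2 passed the unadjusted p (5.29%) and had no overlap (2.41%), which were Abcg5 and Abcg8.

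In batch 2, 1 of 8 members was called for HF against LF (7.44% of all 14377 genes) and had no overlap (27.3%). Between HF-LF and HF mice the same member, Abca1, was called (14.5% of all genes) and had no overlap (27%). Between HF-LF and LF mice 0 of 8 members were called by any tool (0.00696% with edgeR), 0 passed the unadjusted p (4.65%) and 0 were without overlap (1.29%). Over both batches, 3 of 9 members were called between HF and LF mice, against 18.1% of the 14385 genes tested, and 2 of 9 between HF-LF and HF mice, against 10.3%. Between HF-LF and LF mice 0 of 9 were called by any of the 3 tools, as were 0% of all genes with edgeR, and 3 of 9 passed the unadjusted p (4.11%), namely Abcg5 (log2 difference -0.41, SE 0.14), Abcg8 (-0.34, SE 0.13) and Npc1l1 (-0.47, SE 0.20). The comparisons with HF share their samples, as do those with LF, so they are not independent of each other.

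Of the 18 genes on a list of LXR receptors, their partners and targets, which includes the 4 ABC transporters, 17 were tested over both batches. The counts of this and the following lists stand beside 18.1% of all genes called in either direction for HF against LF and 10.3% for HF-LF against HF. In HF against LF mice 5 were lower and 1 higher, with a median log2 difference of -0.25 beside -0.008 over all genes, and 3 of the 5 lower ones were Abcg5, Abcg8 and Abca1. Medians of this list take in the 4 transporters, so they are no separate support for the results of those genes. The other lower genes were Mylip, the ubiquitin ligase that degrades the LDL receptor (-0.52, SE 0.13, adjusted p = 0.00786), and Srebf1, the lipogenic transcription factor (-0.41, SE 0.07, adjusted p = 0.00263). Apoc2, the cofactor of lipoprotein lipase, was higher (0.92, SE 0.20, adjusted p = 0.00552). In HF-LF against HF mice 3 of 17 were higher and 0 lower (median 0.13, over all genes 0.012), and Mylip rose by 0.54 (SE 0.12, adjusted p = 0.0138) and Srebf1 by 0.26 (SE 0.07, adjusted p = 0.0220) beside Abca1. Mylip averaged 36.8 ± 6.18 CPM in LF (SD, n = 4), 22.5 ± 6.36 CPM in HF (SD, n = 3) and 36.0 ± 7.91 CPM in HF-LF samples (SD, n = 4) of batch 1, and 43.4 ± 8.58, 34.1 ± 1.25 and 45.2 ± 2.85 CPM in those of batch 2 (SD, n = 4, 3 and 5).

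The 2 LXR receptors were looked at after the results were known. Nr1h2 (LXR beta) had an adjusted p of 0.00536 between HF and LF mice over both batches, with a log2 difference of -0.26 (SE 0.06) that was under the fold threshold of 1.2, and Nr1h3 (LXR alpha) differed by 0.07 (SE 0.08, adjusted p = 0.515). Gata6, the GATA factor with the higher level here at 58.2 to 82.1 CPM, differed by -0.24 (SE 0.05, adjusted p = 0.00464), also under the fold threshold, while Gata4 was at 0.189 to 1.16 CPM in the 23 samples.

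Lipoprotein assembly and secretion was represented by 25 genes, 22 of them tested. In HF against LF mice 6 of 22 were higher and 0 lower (median 0.09), none of them a member, with 18.1% of all genes called. Those with the largest log2 difference were Creb3l3, the transcription factor that drives intestinal apolipoprotein genes (1.07, SE 0.24, adjusted p = 0.00573), Apoc2, Mogat2, the acyltransferase that resynthesizes diglyceride in enterocytes (0.57, SE 0.15, adjusted p = 0.0101), and Dgat2, which makes triglyceride (0.41, SE 0.11, adjusted p = 0.0123). In HF-LF against HF mice 3 were lower and 0 higher (median -0.08), namely Creb3l3 (-0.86, SE 0.23, adjusted p = 0.0195), Mogat2 (-0.50, SE 0.14, adjusted p = 0.0243) and Dgat2 (-0.45, SE 0.11, adjusted p = 0.0141). Creb3l3 averaged 20.1 ± 2.11 CPM in LF (SD, n = 4), 33.4 ± 13.6 CPM in HF (SD, n = 3) and 19.8 ± 4.53 CPM in HF-LF samples (SD, n = 4) of batch 1, and 10.6 ± 3.38, 28.3 ± 2.12 and 14.4 ± 7.74 CPM in those of batch 2 (SD, n = 4, 3 and 5).

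Of 17 genes of lipoprotein receptors and uptake, all tested, 1 was higher and 3 were lower in HF than in LF mice (median -0.05), and 2 were higher and 2 lower in HF-LF than in HF mice (median 0.06). Scarb1, the high density lipoprotein receptor, rose by 0.30 in HF mice (SE 0.05, adjusted p = 0.00164) and fell by 0.34 from HF to HF-LF mice (SE 0.05, adjusted p = 0.000801). The endocytic receptors Lrp1 (-0.39, SE 0.13, adjusted p = 0.0302) and Sorl1 (-0.28, SE 0.09, adjusted p = 0.0232) were lower in HF mice.

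Intracellular sterol movement and esterification had 2 genes higher and 2 lower of 22 tested in HF against LF mice (median -0.01), a share near the 18.1% of all genes. In HF-LF against HF mice 0 of 22 were called with edgeR (median 0.07). There 10 had an unadjusted p under 0.05, but the share of all genes at that p is not given, so this count is not read as a result. The sterol transfer proteins Gramd1a (-0.41, SE 0.11, adjusted p = 0.0119) and Gramd1b (-0.37, SE 0.11, adjusted p = 0.0173) were lower, and the lysosomal lipase Lipa (0.37, SE 0.09, adjusted p = 0.00967) and the sterol carrier Scp2 (0.31, SE 0.08, adjusted p = 0.00825) were higher. Among 27 transcription regulators, 26 tested, 9 were lower and 1, Creb3l3, was higher in HF than in LF mice (median -0.21), and 6 were higher and 1 lower in HF-LF than in HF mice (median 0.20). Nr1d1, the clock repressor REV-ERB alpha, fell by 0.69 (SE 0.18, adjusted p = 0.0113) and then rose by 0.66 (SE 0.18, adjusted p = 0.0211), and Foxo3 fell by 0.43 (SE 0.09, adjusted p = 0.00573). Over both batches edgeR called no list gene for HF-LF against LF, and the lists held 1 to 5 genes with an unadjusted p under 0.05 (4.11% of all genes). 

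**Figure D5:**
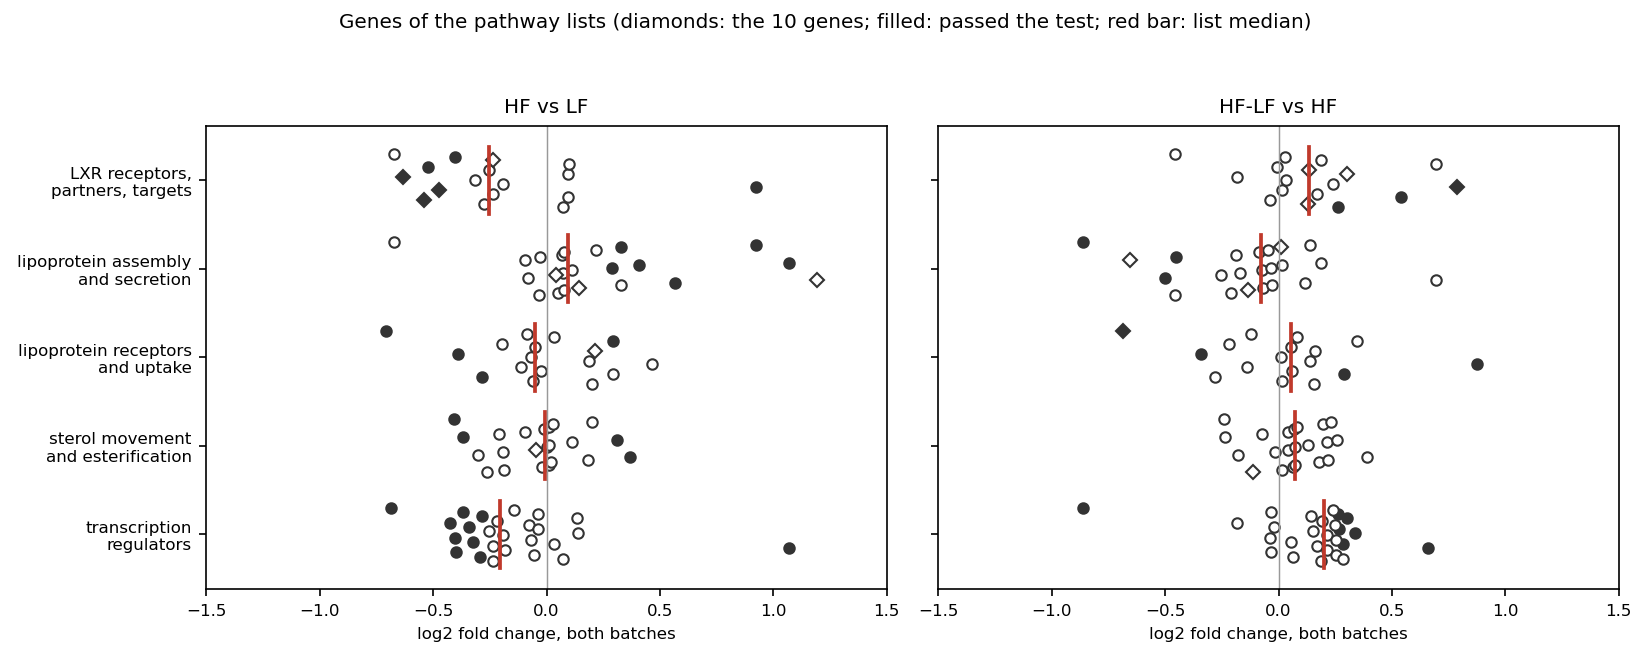
log2 fold change over both batches (x axis) of every tested gene of the 5 pathway lists (y axis), for HF against LF and HF-LF against HF mice; diamonds are members of the set of 10, filled symbols passed the test and red bars mark the list median. The LXR list, with its members of the set included, had a median of -0.25 in HF against LF mice. Apoc2 was the single gene of that list called higher there. The lipoprotein assembly list has only higher calls in HF against LF mice and only lower calls in HF-LF against HF mice.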

How the data were processed

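Ribosome-depleted, stranded RNA from isolated colonic epithelium was sequenced in 23 samples. The authors deposited raw read counts per gene: reads were filtered on base quality and trimmed with cutadapt 1.2.1, aligned to mm10 with STAR 2.5 and counted with featureCounts 1.5.0-p1 of the Subread package. The strand setting and the handling of reads on more than 1 gene are not given in the sources used here, and either could move counts between overlapping genes.

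Counts were scaled by TMM and fitted with edgeR 4.0.16 (R 4.3.3) by quasi-likelihood, with the 3 diets in each batch and with batch as a covariate over both, after filterByExpr. Of 24917 loci, 5109 had no count, and 14428, 14377 and 14385 were tested in batch 1, batch 2 and both. Calls needed a fold above 1.2 and a p under 0.05 after Benjamini-Hochberg adjustment. The SE of a log2 fold change was its size divided by the square root of F. Members that failed the filter were tested by exact permutation of log2(CPM + 0.1) with SciPy 1.17.1. Scripts were tested on simulated data. The members and lists were chosen with earlier results of these data known. All 10 members were named, with at most 4 other genes per list (called between HF and LF over both batches, by size of change) and the 3 genes most like each member by Pearson r; a list gene that this rule takes is not reported here. Alternatives were DESeq2 1.42.0, voom with sample weights (limma 3.58.1), RLE scaling, library totals only, no filter, only the diets compared, a replicate block and leaving out libraries. Gene models came from GENCODE vM21, and promoter windows from RefSeq (GRCm38.p6) for 8 of the 10 members.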

Additional observations from a re-analysis of the deposited data

Results flagged for a closer look

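Among 40 groups of 4 or 5 samples, 4 held a library that stood apart from the rest by Dixon's criterion, and chance marks about 1 group in 20. Apoa4 was at 0.162 CPM in LF replicate 3 of batch 2 and at 0 in the other 3 samples of that group. In HF-LF replicate 3 of batch 2, Apoa4 was at 0.159 CPM against 0 to 0.0432 CPM in the others. Apob was lowest in LF replicate 1 of batch 2, at 1300 CPM, against 1437 to 1464 CPM in the others. Mttp was lowest in LF replicate 3 of batch 2, at 3.20 CPM, against 3.68 to 3.73 CPM in the others.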

How the results depend on the processing

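No member reversed a called direction under any alternative, and RLE scaling and library totals only left every count of called members within 1.5 times. Between HF and LF mice of batch 1, where edgeR called 0 members, DESeq2 called 3, voom with sample weights 3, and fits without single replicates 0 to 2 (Abcg5 and Abcg8 without HF replicate 2). Between HF-LF and LF mice of batch 1 DESeq2 called 2 in place of 0. Between HF and LF mice of batch 2 the 1 call became 0 to 1 without single replicates, and without HF replicate 1 the call was Apoa1 in place of Abca1. Between HF-LF and HF mice of batch 2 the 1 call became 2 with DESeq2, 2 with voom and 2 when only the diets compared were fitted, and 0 to 2 without single replicates. Npc1l1 was the added gene with those tools, and also without LF replicate 2 or HF-LF replicate 5, while Abcg8 was added without HF-LF replicate 2. Over both batches the 2 calls between HF-LF and HF mice became 1 with voom, 1 without the HF libraries numbered 3 (a choice made after seeing the data) and 1 to 2 without single replicates. The 3 calls between HF and LF mice became 1 without those HF libraries and 2 to 3 without single replicates. Causes were not tested. Same-numbered samples of different diets correlated from -0.381 to 0.386 in batch 1 and from -0.119 to 0.389 in batch 2. For samples with different numbers the ranges were -0.445 to 0.451 and -0.329 to 0.279. So few pairs can neither show nor exclude a pairing by replicate number. With the replicate block, 2 members were called between HF-LF and HF mice of batch 2, Npc1l1 among them (log2 difference -0.91, adjusted p = 0.0234), and no other member changed its call. Depth limited Apoa1 and Apoa4, which had at most 3 counts in 10 and 18 of 23 samples.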
